A study of Mus musculus with 3 samples.

Results

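The genes described here encode the machinery that destroys mRNA: the factors of nonsense-mediated decay and the general enzymes of deadenylation, decapping and exonucleolytic decay. They were chosen by name, as the Upf, Smg, Exosc, Cnot, Edc and Xrn genes with a number in their symbol plus 13 named genes (Dcp1a, Dcp1b, Dcp2, Dcps, Magoh, Magohb, Rbm8a, Casc3, Ncbp1, Ncbp2, Dis3, Pan2 and Pan3). This gave 48 of the 21899 gene symbols measured, which fall into 9 complexes or functional groups. The naming rule uses no expression value. RNA was sequenced from MIN6, an insulinoma line of mouse that secretes insulin and stands in for the pancreatic beta cell. The 3 libraries came from cultures that received a non-targeting siRNA (siNC), an siRNA to Srsf1 (siSRSF1) or an siRNA to Srsf2 (siSRSF2). All 3 therefore share the cell line and a transfection with siRNA, and no untransfected cells were analysed here. SRSF1 and SRSF2, called ASF and SC35 in part of the labels, are SR proteins that bind exons and guide splice site choice. The sources used here do not give the siRNA sequences, their dose or the time of harvest.

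Nonsense-mediated decay recognises an mRNA whose reading stops upstream of an exon junction. The exon junction complex, laid down by splicing, is then met by UPF1, UPF2 and UPF3, the kinase SMG1 phosphorylates UPF1, and factors that bind the phosphorylated form, such as SMG5 and SMG6, start the destruction. General decay begins with shortening of the poly(A) tail by PAN2-PAN3 and CCR4-NOT, followed by removal of the cap by DCP2 and digestion by XRN1 from the capped end or by the exosome from the tail end. SR proteins touch this system as background, because many of their own mRNAs carry poison exons that expose them to nonsense-mediated decay, and because SRSF1 is itself known to enhance that decay.

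Several members are pairs of paralogs, and whether reads could be divided between them bears on the counts of those pairs below. Stretches of 120 coding bases from GENCODE M21 transcripts (GRCm38) are therefore printed for the 3 closest pairs, each where the pair is most alike, with the bases at which the 2 copies differ in capitals.
Magoh: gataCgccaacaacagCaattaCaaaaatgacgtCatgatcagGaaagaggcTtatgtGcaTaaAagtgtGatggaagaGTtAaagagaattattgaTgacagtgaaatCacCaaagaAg
Magohb: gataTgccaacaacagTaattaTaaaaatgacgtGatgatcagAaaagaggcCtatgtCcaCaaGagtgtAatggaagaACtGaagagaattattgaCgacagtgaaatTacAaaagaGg
Cnot6: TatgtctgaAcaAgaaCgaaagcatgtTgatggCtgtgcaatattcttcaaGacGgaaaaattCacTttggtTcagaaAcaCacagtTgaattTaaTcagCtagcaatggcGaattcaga
Cnot6l: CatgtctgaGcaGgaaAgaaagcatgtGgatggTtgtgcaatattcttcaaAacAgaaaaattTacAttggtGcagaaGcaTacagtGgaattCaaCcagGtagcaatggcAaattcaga
Cnot7: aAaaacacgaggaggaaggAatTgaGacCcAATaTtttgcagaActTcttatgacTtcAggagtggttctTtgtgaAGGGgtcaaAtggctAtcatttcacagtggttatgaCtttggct
Cnot8: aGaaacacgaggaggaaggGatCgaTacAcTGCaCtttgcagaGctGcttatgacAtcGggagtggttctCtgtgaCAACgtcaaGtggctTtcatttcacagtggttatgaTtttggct
The Magoh and Magohb stretches differ at 17 bases, those of Cnot6 and Cnot6l at 18 and those of Cnot7 and Cnot8 at 21. Over the whole coding sequence, Magoh and Magohb were 81.0% identical, with no shared exact run longer than 17 bases in their transcripts. Cnot6 and Cnot6l were 73.7% identical and Cnot7 and Cnot8 72.4%, each pair with a longest shared run of 20 bases. The remaining pairs were further apart (Xrn1 and Xrn2 71.8%, Upf3a and Upf3b 66.7%, Dcp1a and Dcp1b 62.3%). The sources used here give neither the read length nor the treatment of reads with several matches, so the counts of these pairs are uncertain to an unknown degree.

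The libraries held 12688334 reads (siNC), 14478045 (siSRSF1) and 14682576 (siSRSF2) on named genes. With 1 library in each group there is no replicate check, no test was possible, and every interval below is a 95% interval that covers counting error only. Levels are CPM, the count of a gene relative to the library total, after TMM scaling (a trimmed mean over genes that evens out library composition). Srsf1 stood at 324, 221 and 274 CPM in siNC, siSRSF1 and siSRSF2, and Srsf2 at 94.9, 90.9 and 32.5 CPM. The library labelled siSRSF1 thus held 0.683 times the siNC level of Srsf1 (0.652 to 0.716), and that labelled siSRSF2 held 0.343 times the level of Srsf2 (0.308 to 0.381). Srsf1 was also lower in siSRSF2, at 0.847 times siNC (0.811 to 0.884). All 14 beta-cell markers had at least 20 reads, whereas none of 9 acinar and ductal or 8 fibroblast and endothelial markers did. Within the beta-cell list, 4 of 14 genes were higher and 2 lower past the rule given below in siSRSF1, beside 12.0% and 9.68% of all genes. In siSRSF2, 6 of 14 were higher and 3 lower, beside 14.0% and 10.5%, so each share was above that of all genes. With a trend on GC content removed, Nkx2-2 and Abcc8 were no longer past the rule in siSRSF1, nor was Abcc8 in siSRSF2. The other calls of this list stayed. Of 7 markers of the other islet cells, 3 had at least 20 reads, with sums of 142, 167 and 151 CPM in siNC, siSRSF1 and siSRSF2, mostly from Gcg, and Sst was at 0.638 times siNC in siSRSF2. Of 6 immune markers, Cd3e, Itgam and Adgre1 were at 0 and only Cd68 had more than 2 reads, with 56, 232 and 55 in siNC, siSRSF1 and siSRSF2. The immune list summed to 4.46, 16.3 and 3.81 CPM, and the part of these lists in the results below was not tested.

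Of the 48 genes, 47 had at least 20 reads in every library, and together they took 0.325% of the reads in siNC, 0.311% in siSRSF1 and 0.340% in siSRSF2. Levels between genes are compared per length, in the authors' FPKM, which divides a count by the gene's length and the library total. The median over the 48 genes was 10.2 FPKM in siNC, 9.85 in siSRSF1 and 10.5 in siSRSF2, against 5.01, 4.40 and 5.57 over all genes with reads. In siNC the highest levels belonged to the exon junction core gene Magoh at 40.1 FPKM and to the cap-binding genes Ncbp1 at 34.1 and Ncbp2 at 28.9. Xrn2, the nuclear exonuclease, followed at 26.4 FPKM. The lowest were Dcp1b at 0.957 FPKM, Exosc5 at 2.44 and Pan3 at 3.0. Some paralogs were far apart in level, with Dcp1a at 4.82 FPKM against 0.957 for Dcp1b and Upf3b at 22.1 FPKM against 5.89 for Upf3a. Cnot6 and Cnot6l lay closer together, at 22.6 and 19.0 FPKM, as did Cnot7 and Cnot8, at 16.6 and 18.8 FPKM. For most genes the length behind the FPKM exceeded that of the transcript with the longest coding part, to differing extents. It was 10313 against 3170 bases for Cnot6l and 6610 against 5736 for Cnot6. For Upf3a it was 5865 against 2057, and for Upf3b 3999 against 2344. The order of genes and the distances between paralogs hold for FPKM only and could differ per transcript length.

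**Figure D1:**
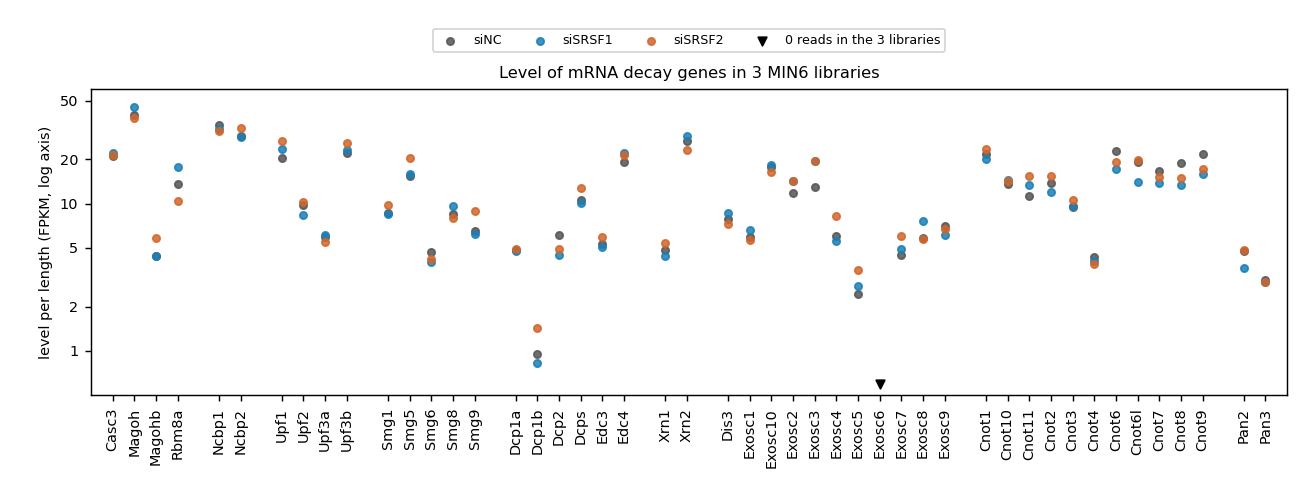
Level of the mRNA decay genes per length, 1 member not shown (FPKM, log axis) in the siNC, siSRSF1 and siSRSF2 libraries, with the genes grouped by complex; each point is 1 library and a triangle marks Exosc6, listed at 0. Magoh sits highest, at 40.1 FPKM in siNC, and Dcp1b lowest of the genes with reads, at 0.957 FPKM.

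Exosc6, which encodes a ring subunit of the exosome, was listed at 0 reads in all 3 libraries. Its single exon (chr8:111056339-111057664, plus strand) lies wholly within exons of Aars on the same strand in GENCODE M21, with all 1326 of its exon bases shared. Aars had 6504, 8977 and 10923 reads. The 0 of Exosc6 is thus the value of a gene without a base of its own, and it is left out of every ratio below. Other members share smaller parts of their exons with a neighbour: 22.1% of Edc3 with Clk3, 19.8% of Exosc4 with Oplah and 10.8% of Exosc9 with Ccna2, each on the opposite strand. The sources used here do not say whether reads were counted by strand, so reads of these pairs cannot be told apart. A pseudogene of the same strand, Gm44958, covers 30.2% of the exon bases of Magohb.

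Transcripts of the decay machinery differed little between either siRNA library and siNC, and no member reached 2-fold in any comparison. The rule for a higher gene was a ratio of 1.3 or more, and for a lower gene one of 0.769 or less, in each case with a counting interval clear of 1. In siSRSF1 against siNC, 3 of 47 members were higher by this rule, against 12.0% of 11602 genes, and 5 of 47 were lower, against 9.68%. In siSRSF2 against siNC, 7 of 47 were higher, against 14.0% of 11611 genes, and 2 of 47 were lower, against 10.5%. With library totals in place of TMM, the siSRSF2 split was 9 higher and 1 lower. With the GC trend removed, 2 were higher and 3 lower in siSRSF1, among them 2 of the 5 lower ones above, and 5 were higher and 1 lower in siSRSF2, among them 4 of the 7 higher ones. As shares, the members' counts were 6.38% and 10.6% in siSRSF1 and 14.9% and 4.26% in siSRSF2, each near the share of all genes or below it. By the interval alone, whatever the size, 8 members were higher and 14 lower in siSRSF1, beside 27.2% and 25.5% of all genes, and 15 were higher and 12 lower in siSRSF2, beside 28.1% and 25.4%. At 2-fold, where no member was called, 2.4% and 1.2% of all genes were higher and lower in siSRSF1, and 2.51% and 1.04% in siSRSF2. The median log2 ratio of the members was -0.02 in siSRSF1 and 0.02 in siSRSF2, beside 0.00 and 0.02 over all genes compared. The middle 90% of member ratios spanned 0.734 to 1.28 in siSRSF1 and 0.772 to 1.38 in siSRSF2, beside 0.667 to 1.61 and 0.672 to 1.68 for all genes. Among genes with at least 100 reads, which are counted more precisely, the spans were 0.717 to 1.49 and 0.70 to 1.54. In bulk RNA of this kind, a change in the make-up of the culture and a change in RNA per cell cannot be told apart.

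**Figure D2:**
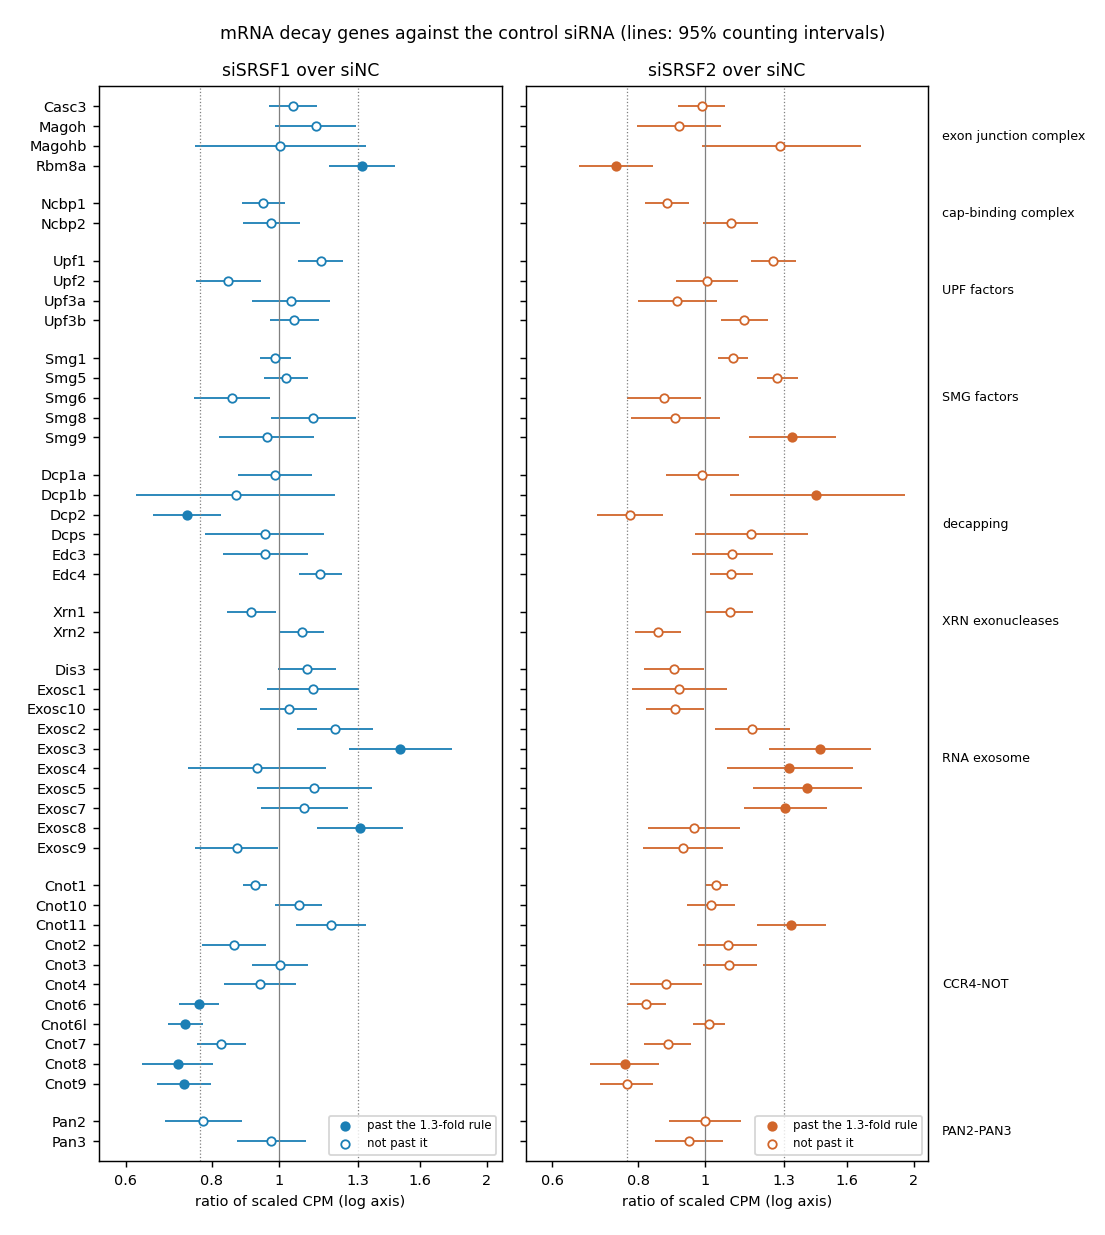
Ratio of scaled CPM (log axis) of the decay genes with reads, 1 member not shown, in siSRSF1 (left) and siSRSF2 (right) over the shared siNC library, grouped by complex; lines are 95% counting intervals and filled points passed the 1.3-fold rule. Most points lie between 0.769 and 1.3, with Exosc3 highest in both panels, at 1.5 and 1.46.

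Rbm8a (chr3:96629933-96633791, plus strand), which encodes the partner of MAGOH in the core of the exon junction complex, was the 1 member past the 1.3-fold rule in opposite directions in the 2 siRNA libraries. It had 552 reads in siNC, 829 in siSRSF1 and 488 in siSRSF2, or 43.9, 57.8 and 32.6 CPM. The siSRSF1 library was the highest and the siSRSF2 library the lowest. The ratio to siNC was 1.32 in siSRSF1 (1.18 to 1.47) and 0.742 in siSRSF2 (0.656 to 0.84), and siSRSF1 stood at 1.77 times siSRSF2 (1.59 to 1.99). With a trend on gene length removed, the siSRSF1 ratio was 1.29 and no longer past the rule, and with a trend on GC content removed it was 1.39. Its annotated copy Rbm8a2 had 2, 0 and 0 reads.

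A stretch of 120 coding bases near the end of the Rbm8a reading frame is printed because this gene separates the siRNA libraries most, with the pentamer GGAGA, a sequence SRSF1 is known to bind, in capitals.
Rbm8a: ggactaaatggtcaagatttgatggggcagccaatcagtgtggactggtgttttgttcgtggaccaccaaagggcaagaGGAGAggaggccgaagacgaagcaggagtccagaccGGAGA
The stretch was chosen as the 120 coding bases with the most GGAGA matches, searched on the sense strand only. By that choice it holds both matches of the Rbm8a coding sequence, which has 3.83 per kilobase. GGAGA was found in 45 of the 48 members, with a median of 2.2 per kilobase, and in 85.8% of 21686 coding sequences, with a median of 2.29 per kilobase. Exosc2 had the most among the members, at 9.10 per kilobase, and Magohb, Exosc1 and Exosc5 had none. Other motifs were counted in the same way. With N for any base, Rbm8a had 40.2 matches per kilobase to GGNG, beside medians of 18.1 in the members and 18.4 in all coding sequences. It had 7.66 per kilobase to CCNG, beside 20.6 and 21.7. For GAAGAA it had 3.83 per kilobase, beside 1.12 and 0.882. A match describes the sequence and is not a binding site. Whether SRSF1 or SRSF2 binds Rbm8a was not tested.

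The other exon junction genes did not pass the rule as stated. Magoh stood at 31.2, 35.2 and 28.6 CPM in siNC, siSRSF1 and siSRSF2, and Magohb, which encodes a near-identical protein, at 7.64, 7.68 and 9.82 CPM. Magohb had the lowest ratio of the complex in siSRSF1, 1.00 (0.757 to 1.34), and the highest in siSRSF2, 1.28 (0.987 to 1.68), on 96, 110 and 147 reads. The siSRSF2 ratio was past the rule with library totals, at 1.32, and with the GC trend removed, at 1.33. Casc3, whose product joins the core in the cytoplasm, stayed at 91.6, 95.9 and 90.4 CPM. Summed over the 4 genes, the complex stood at 1.13 times siNC in siSRSF1 (1.07 to 1.19) and at 0.926 times in siSRSF2 (0.874 to 0.982). Both sums include Rbm8a, the 1 gene of the complex past the rule. The nuclear cap-binding genes, whose products hold the cap of newly made mRNA, moved less. Ncbp1 stood at 116, 110 and 102 CPM and Ncbp2 at 67.2, 65.5 and 73.1 CPM. Their ratios were 0.949 (0.883 to 1.02) and 0.975 (0.887 to 1.07) in siSRSF1, and 0.880 (0.819 to 0.946) and 1.09 (0.994 to 1.19) in siSRSF2.

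None of the UPF genes passed the 1.3-fold rule. Upf1, the RNA helicase at the centre of nonsense-mediated decay, had the highest ratio of the group in both comparisons. Its level was 95.7 CPM in siNC, 110 in siSRSF1 and 120 in siSRSF2, and the ratios were 1.15 (1.07 to 1.24) and 1.25 (1.17 to 1.35). Removing the trend on GC content, which is 57.9% in the Upf1 transcript, brought them to 1.02 and 1.16, below those of Upf3b, which were then 1.13 and 1.17. Upf2, which bridges UPF1 to UPF3, was at 54.4, 46.0 and 54.7 CPM and had the lowest ratio in siSRSF1, 0.845 (0.758 to 0.942). Upf3a and Upf3b encode the adaptors to the exon junction complex. Upf3a stood at 34.8, 36.3 and 31.7 CPM, with the lowest ratio of the group in siSRSF2, 0.910 (0.798 to 1.04). Upf3b stood at 89.3, 93.99 and 102 CPM. The sum of the 4 genes was 1.04 times siNC in siSRSF1 (0.997 to 1.09) and 1.12 times in siSRSF2 (1.07 to 1.17).

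Among the SMG genes, Smg9 alone passed the rule, as higher in siSRSF2. SMG8 and SMG9 bind the kinase SMG1 and restrain it. Smg9 (chr7:24399619-24422778, plus strand) had 305 reads in siNC, 334 in siSRSF1 and 485 in siSRSF2, or 24.3, 23.3 and 32.4 CPM. The siSRSF2 library stood above the other 2, with a ratio of 1.33 to siNC (1.15 to 1.55), while that of siSRSF1 was 0.961 (0.82 to 1.13). Removing the GC trend took the siSRSF2 ratio to 1.17 and ended the call. Smg8 lay the other way, at 27.7, 31.1 and 25.04 CPM, and had the highest ratio of the group in siSRSF1, 1.12 (0.973 to 1.29). Smg1, a large gene whose transcript has 63 exons, stood at 210, 207 and 230 CPM.

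Smg5 and Smg6 encode proteins that bind phosphorylated UPF1, SMG6 as an endonuclease and SMG5 as a link to deadenylation and decapping. Smg5 was at 109, 111 and 138 CPM and reached 1.27 times siNC in siSRSF2 (1.19 to 1.36), or 1.31 times and past the rule with library totals. Smg6 was at 39.9, 34.1 and 34.8 CPM and had the lowest ratio of the group in both comparisons, 0.854 (0.753 to 0.97) and 0.871 (0.769 to 0.987). Summed reads of the SMG group stood at 0.961 times siNC in siSRSF1 (0.93 to 0.994) and at 1.12 times in siSRSF2 (1.08 to 1.15).

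CCR4-NOT, the main cytoplasmic deadenylase, carried most of the lower calls in siSRSF1. Of its 11 genes, 4 were lower past the 1.3-fold rule there (Cnot6, Cnot6l, Cnot8 and Cnot9), beside 9.68% of all genes, and none was higher. With the GC trend removed, Cnot8 and Cnot9 alone of these stayed past it. In siSRSF2, Cnot8 was lower and Cnot11 was higher. The summed reads of the complex were 0.866 times siNC in siSRSF1 (0.847 to 0.886) and 0.973 times in siSRSF2 (0.953 to 0.994), the latter becoming 1.00 with library totals in place of TMM. The 4 genes that encode its nucleases, Cnot6 and Cnot6l of the CCR4 type and Cnot7 and Cnot8 of the CAF1 type, summed to 0.759 times siNC in siSRSF1 (0.732 to 0.787). The other 7 subunits summed to 0.936 times (0.911 to 0.963). These sums were not run with the GC trend removed. With it removed, single siSRSF1 ratios were 0.843 for Cnot6, 0.807 for Cnot6l, 0.901 for Cnot7 and 0.729 for Cnot8. Those of the other subunits then ran from 0.741 for Cnot9 to 1.17 for Cnot11. In siSRSF2 the nuclease genes summed to 0.903 times siNC (0.872 to 0.935) and the other subunits to 1.02 times (0.992 to 1.05).

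Cnot8 (chr11:58104153-58118594, plus strand) was lower in both siRNA libraries. Its reads were 630, 513 and 574 in siNC, siSRSF1 and siSRSF2, or 50.1, 35.8 and 38.3 CPM, and its ratios were 0.714 (0.634 to 0.804) and 0.765 (0.682 to 0.858). Both siRNA libraries lay below siNC, and the siSRSF1 call held with every alternative scaling and trend run, from which its ratio came out between 0.687 and 0.729. In siSRSF2 the call ended with library totals, at 0.787, and with the GC trend removed, at 0.771. Cnot7, the paralog of Cnot8, stood at 97.7, 80.6 and 86.2 CPM, with ratios of 0.825 (0.761 to 0.895) and 0.882 (0.815 to 0.954).

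Cnot6l (chr5:96070333-96164171, minus strand) had 2491, 2080 and 3000 reads, or 198, 145 and 200 CPM. Only the siSRSF1 library was low, at 0.732 times siNC (0.691 to 0.777), while siSRSF2 was at 1.01 times (0.958 to 1.07). Its paralog Cnot6 (chr11:49671503-49712723, minus strand) had 1895, 1655 and 1854 reads, or 151, 115 and 124 CPM, with ratios of 0.766 (0.717 to 0.819) and 0.821 (0.770 to 0.876). These 2 genes have the lowest GC contents of the members, 39.6% for Cnot6l and 39.8% for Cnot6. With the GC trend removed, their siSRSF1 ratios were 0.807 and 0.843, no longer past the rule.

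Cnot9 (chr1:74506058-74530842, plus strand) encodes the subunit through which silencing proteins such as TNRC6 bind the complex. It had 1052, 874 and 964 reads, or 83.7, 61.0 and 64.4 CPM. The ratio was 0.729 in siSRSF1 (0.665 to 0.798) and 0.769 in siSRSF2 (0.704 to 0.84), the second just short of the rule, so Cnot9 and Cnot8 had similar values in both comparisons. Cnot11 (chr1:39534992-39546889, plus strand), which forms a module with CNOT10, had 500, 678 and 793 reads, or 39.8, 47.3 and 53.0 CPM. It was the highest of the complex in both comparisons, at 1.19 in siSRSF1 (1.06 to 1.34) and 1.33 in siSRSF2 (1.19 to 1.49).

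The scaffold gene Cnot1 had the most reads of the complex, at 379, 349 and 393 CPM, a ratio of 0.923 in siSRSF1 (0.887 to 0.960). Cnot2 and Cnot3 encode the partners that dock on its end. Cnot2 stood at 57.1, 49.2 and 61.5 CPM and Cnot3 at 68.7, 68.9 and 74.4 CPM. Cnot4, which encodes a ubiquitin ligase, stood at 42.7, 40.1 and 37.5 CPM, and Cnot10 at 92.1, 98.4 and 93.8 CPM. None of these passed the rule. PAN2-PAN3 starts the shortening of long tails. Pan2, its nuclease, had 509, 451 and 606 reads, or 40.5, 31.5 and 40.5 CPM, and the siSRSF1 ratio of 0.777 (0.683 to 0.884) fell just short of the rule. It was 0.765 with the GC trend removed, and then past it. In siSRSF2, Pan2 was at 0.999 times siNC (0.887 to 1.13). Pan3, the RNA-binding adaptor, stood at 45.3, 44.2 and 42.9 CPM, with ratios of 0.974 (0.868 to 1.09) and 0.947 (0.845 to 1.06).

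**Figure D3:**
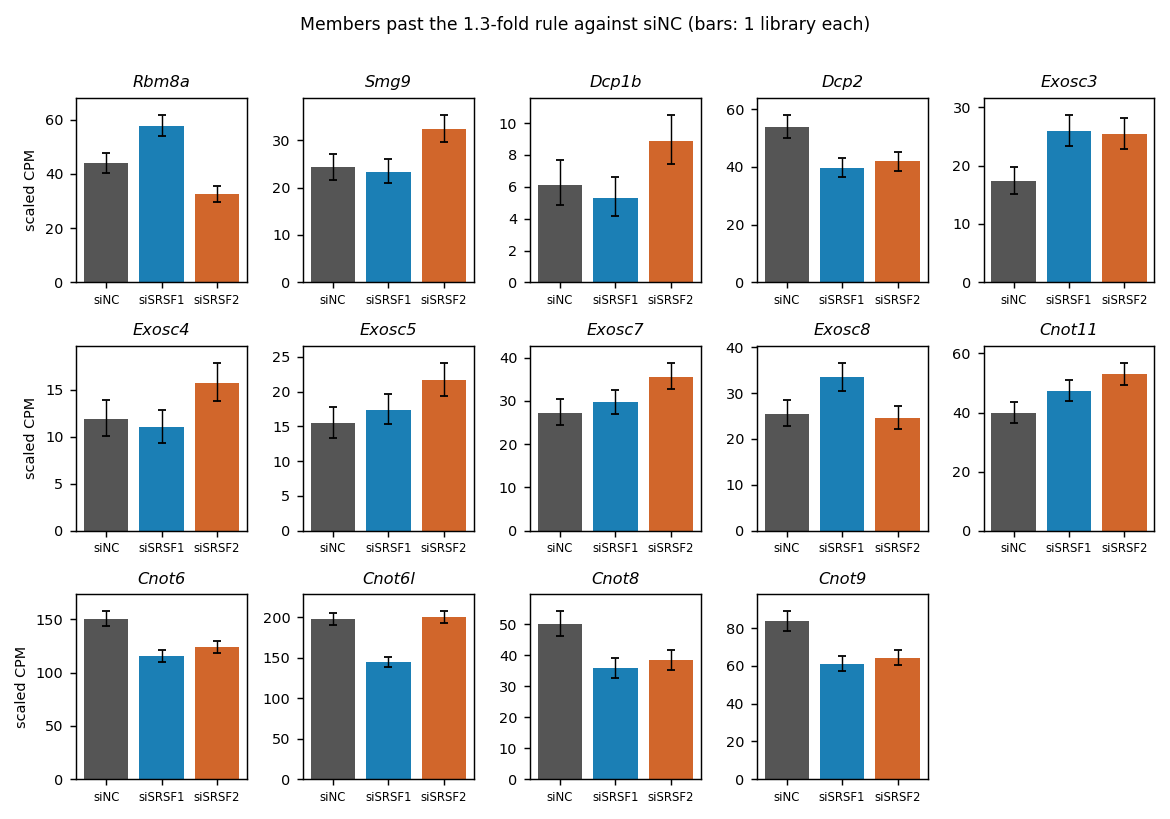
Scaled CPM in the siNC, siSRSF1 and siSRSF2 libraries for each member past the 1.3-fold rule against siNC; bars start at 0, stand for 1 library each and carry 95% counting intervals. Rbm8a is highest in siSRSF1 and lowest in siSRSF2, at 57.8 and 32.6 CPM, while Exosc3 is higher and Cnot8 lower than siNC in both.

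In decapping, Dcp2 was lower in siSRSF1 and Dcp1b higher in siSRSF2. Dcp2 encodes the decapping enzyme itself. It had 677, 568 and 627 reads, or 53.9, 39.6 and 41.9 CPM, with both siRNA libraries below siNC. Its ratios were 0.736 in siSRSF1 (0.657 to 0.824) and 0.778 in siSRSF2 (0.696 to 0.868), the second just short of the rule. Removing the GC trend took the first to 0.789 and ended the call. Dcp1b (chr6:119175253-119221616, plus strand), one of a pair of DCP2 activators, had few reads, 77, 76 and 133, or 6.13, 5.30 and 8.88 CPM. The siSRSF2 library stood above the other 2, at 1.45 times siNC (1.09 to 1.95). Its better-expressed paralog Dcp1a did not follow, at 40.0, 39.5 and 39.6 CPM and ratios of 0.987 (0.874 to 1.12) and 0.99 (0.877 to 1.12).

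Edc3 and Edc4 encode enhancers of decapping, EDC4 as its scaffold, and Dcps the scavenger that degrades leftover caps. Edc4 had the highest siSRSF1 ratio of the group, 1.15 (1.07 to 1.23), from 106, 122 and 115 CPM. Edc3 stood at 30.9, 29.6 and 33.9 CPM and Dcps at 15.6, 14.9 and 18.2 CPM. Summed over the 6 genes, decapping was at 0.992 times siNC in siSRSF1 (0.946 to 1.04) and 1.02 times in siSRSF2 (0.974 to 1.07). The exonucleases that follow did not pass the rule either. Xrn1, which digests decapped mRNA in the cytoplasm, stood at 91.1, 83.0 and 98.8 CPM, with ratios of 0.912 (0.84 to 0.989) and 1.08 (1.00 to 1.17). Xrn2, which acts in the nucleus at transcription ends, lay the opposite way, at 106, 115 and 90.7 CPM and ratios of 1.08 (1.00 to 1.16) and 0.853 (0.791 to 0.921).

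Of the 10 exosome genes with reads, 2 were higher in siSRSF1 (Exosc3 and Exosc8), beside 12.0% of all genes, and 4 were higher in siSRSF2 (Exosc3, Exosc4, Exosc5 and Exosc7), beside 14.0%. None was lower in either. With the GC trend removed, Exosc3 alone was past the rule in siSRSF1, and Exosc3 and Exosc5 in siSRSF2. Exosc3 (chr4:45316613-45342732, minus strand), which encodes a cap subunit that contacts RNA, had 218 reads in siNC, 372 in siSRSF1 and 380 in siSRSF2, or 17.3, 26.0 and 25.4 CPM. Both siRNA libraries stood well above siNC and close to each other. Its ratios of 1.5 (1.26 to 1.78) and 1.46 (1.24 to 1.74) were the highest of all 47 members in both comparisons. They were 1.52 and 1.47 with the GC trend removed, and over all settings run the siSRSF1 ratio went as low as 1.34, with the length trend removed. The other cap genes moved less, with Exosc1 at 24.3, 27.3 and 22.3 CPM and Exosc2 at 34.2, 41.2 and 40.0 CPM, the latter 1.21 times siNC in siSRSF1 (1.06 to 1.37) and 1.17 times in siSRSF2 (1.03 to 1.33).

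Exosc4 to Exosc9 encode the ring through which RNA is threaded. Exosc8 (chr3:54728678-54735393, minus strand) was high in siSRSF1 alone, with 321, 479 and 368 reads, or 25.5, 33.4 and 24.6 CPM, and a ratio of 1.31 (1.13 to 1.51). That call ended with the GC trend removed, at 1.28. Exosc4 (chr15:76327397-76330677, plus strand) had 149, 158 and 235 reads and Exosc5 (chr7:25659164-25671368, plus strand) 194, 249 and 324. For both, the siSRSF2 library was the highest, at 1.32 times siNC for Exosc4 (1.07 to 1.64) and 1.40 times for Exosc5 (1.17 to 1.68). Exosc7 (chr9:123113215-123136129, plus strand) had 343, 425 and 533 reads and was at the edge of the rule in siSRSF2, at 1.3 (1.14 to 1.5). The GC trend removed, Exosc4 was at 1.29 and Exosc7 just under 1.3, so that Exosc5 alone of the ring genes kept its siSRSF2 call, at 1.36. Exosc9 had the lowest siSRSF1 ratio of the complex, 0.869 (0.757 to 0.997), from 33.3, 29.0 and 30.9 CPM.

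The catalytic subunits stood slightly below siNC in siSRSF2, as did Exosc1, Exosc8 and Exosc9, at 0.916 (0.782 to 1.07), 0.962 (0.826 to 1.12) and 0.928 (0.811 to 1.06). Dis3 encodes the exosome's main nuclease and stood at 61.1, 67.1 and 55.1 CPM, and Exosc10, a nuclease of the nuclear exosome, stood at 64.0, 66.1 and 57.9 CPM. Their sum was 1.06 times siNC in siSRSF1 (0.995 to 1.14) and 0.903 times in siSRSF2 (0.843 to 0.968). In siSRSF2 the ring genes summed to 1.13 times siNC (1.06 to 1.21) and the cap genes to 1.16 times (1.06 to 1.26). Dis3 had the lowest ratio of the complex there, 0.902 (0.816 to 0.996). The whole exosome summed to 1.11 times siNC in siSRSF1 (1.06 to 1.15) and 1.05 times in siSRSF2 (1.00 to 1.09).

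**Figure D4:**
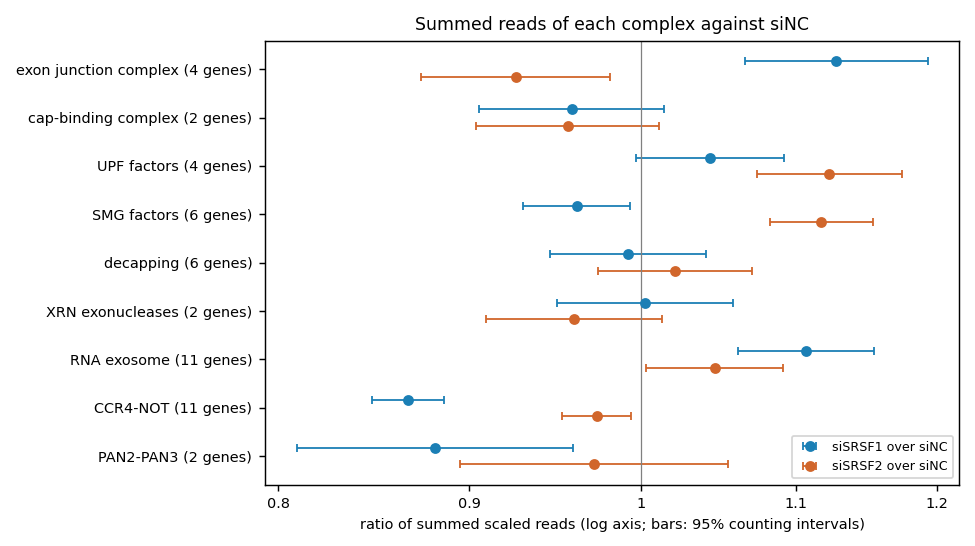
Ratio of the summed scaled reads (log axis) of each of the 9 complexes or groups in siSRSF1 and siSRSF2 over the shared siNC library; bars are 95% counting intervals. In siSRSF1, CCR4-NOT is lowest at 0.866, with PAN2-PAN3 near it at 0.881, and the exon junction complex, Rbm8a included, is highest at 1.13. In siSRSF2 the UPF and SMG groups are highest, both at 1.12.

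Set directly against each other, the siRNA libraries differed most in Rbm8a among single members. Among summed groups they differed most in the exon junction complex, which includes Rbm8a. Of 47 members, 2 were higher in siSRSF1 than in siSRSF2 past the 1.3-fold rule, against 12.4% of 11705 genes, and 4 were lower, against 14.6%. With library totals in place of TMM the counts were 2 and 7. The higher genes were Rbm8a, as above, and Exosc8, at 1.36 (1.18 to 1.56). The lower ones were Dcp1b at 0.599 (0.444 to 0.797), Exosc4 at 0.703 (0.571 to 0.863), Smg9 at 0.720 (0.624 to 0.829) and Cnot6l at 0.724 (0.685 to 0.766). By the interval alone, whatever the size, 21 members were lower and 10 higher, which is 44.7% and 21.3% beside 29.1% and 29.0% of all genes. No member reached 2-fold, as 1.96% of genes did upward and 2.4% downward. The median log2 ratio of the members was -0.10, beside -0.01 over all genes, and -0.05 with the GC trend removed. In summed reads, siSRSF1 stood at 1.22 times siSRSF2 for the exon junction complex (1.15 to 1.29). Beside Rbm8a in that sum, Casc3 was at 1.06 (0.983 to 1.14), Magoh at 1.23 (1.08 to 1.41) and Magohb at 0.783 (0.605 to 1.01). The summed ratio of siSRSF1 to siSRSF2 was 0.860 for the SMG genes (0.834 to 0.887), 0.890 for CCR4-NOT (0.871 to 0.909) and 0.929 for the UPF genes (0.891 to 0.969). Xrn2 and Xrn1 lay on opposite sides, at 1.27 (1.18 to 1.36) and 0.841 (0.778 to 0.908).

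Partners of these complexes outside the 48 genes were described from 4 lists. In the decapping and P-body list, 5 of 17 genes were higher in siSRSF1, beside 12.0% of all genes, and none was lower. In siSRSF2, 4 were higher, beside 14.0%, and 1 was lower, beside 10.5%. Nudt3, 1 of the 5, was at 1.34 in siSRSF1 (1.2 to 1.5) and at 1.22, no longer past the rule, with the GC trend removed. The higher genes of this list were mostly LSM genes, which encode the ring that binds shortened tails and activates decapping. LSM genes also make up much of the list, and several were not higher. In siSRSF1, Lsm3, Lsm5 and Lsm6 stood at 1.01, 1.06 and 0.894 times siNC. In siSRSF2, Lsm5, Lsm6 and Lsm7 stood at 0.857, 0.796 and 0.826 times. Lsm2, whose product is also part of the ring on U6 snRNA, had 178, 428 and 395 reads, or 2.11 times siNC in siSRSF1 (1.77 to 2.53) and 1.86 times in siSRSF2 (1.56 to 2.24). Lsm4 had 647, 1162 and 1013 reads, at 1.57 times (1.43 to 1.74) and 1.31 times (1.19 to 1.45), the second no longer past the rule with the GC trend removed, at 1.18. Lsm7 was high in siSRSF1 alone, at 1.49 times siNC (1.23 to 1.81) from 176, 299 and 173 reads. Lsm8, of the U6 ring, was at 1.39 times siNC in siSRSF2 (1.22 to 1.58), and Lsm3 was the 1 lower gene there, at 0.769 (0.60 to 0.982) and at 0.779, no longer past the rule, with the GC trend removed.

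Of 22 compared partners of the exon junction and nonsense-mediated decay, 2 were higher and none lower past the 1.3-fold rule in siSRSF1. In siSRSF2, 2 were higher and 2 lower. By that rule these shares were no higher than those of all genes (12.0% and 9.68%, then 14.0% and 10.5%). By the interval alone, whatever the size, 13 were higher and 5 lower in siSRSF1, beside 27.2% and 25.5% of all genes. In siSRSF2, 8 were higher and 8 lower, beside 28.1% and 25.4%. The median ratio was 1.09 in siSRSF1 and 1.01 in siSRSF2, beside 1.00 and 1.01 over all genes. These counts were not run with the GC trend removed. Pym1, which takes exon junction complexes off translated mRNA, had 152, 255 and 181 reads and stood at 1.47 times siNC in siSRSF1 (1.2 to 1.81). Mov10, a helicase that binds UPF1, had 69, 114 and 112 reads, at 1.45 times (1.07 to 1.98) and 1.36 times (1.00 to 1.87), neither past the rule with the GC trend removed. Pnrc1 had 226, 307 and 498 reads and stood at 1.85 times siNC in siSRSF2 (1.58 to 2.17). The lower genes in siSRSF2 were Srrt, a partner of the cap-binding complex, at 0.706 (0.667 to 0.747), and Pabpc4, a cytoplasmic poly(A)-binding protein, at 0.731 (0.689 to 0.775).

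Of 16 compared exosome cofactors, none was higher and 1 was lower in siSRSF1, beside 12.0% and 9.68% of all genes. In siSRSF2, 1 was higher and 1 lower, beside 14.0% and 10.5%, so by the 1.3-fold rule no share was above that of all genes. By the interval alone, 1 was higher and 3 lower in siSRSF1, beside 27.2% and 25.5% of all genes. In siSRSF2, 3 were higher and 6 lower by the interval, beside 28.1% and 25.4%. Hbs1l was the lower gene in siSRSF1, at 0.762 (0.708 to 0.819), and at 0.782, no longer past the rule, with the GC trend removed. HBS1L belongs to the pair that rescues stalled ribosomes. In siSRSF2, Mtrex, the helicase that feeds RNA to the nuclear exosome, had 1380, 1474 and 1194 reads and was lower, at 0.726 (0.672 to 0.785). Tent4b, the poly(A) polymerase that tags RNA for the nuclear exosome, was higher there, at 1.34 (1.22 to 1.48). Of 27 compared deadenylation partners, 2 were higher and 4 lower in siSRSF1, beside 12.0% and 9.68% of all genes, and 4 were higher and 1 lower in siSRSF2, beside 14.0% and 10.5%. Btg1, which binds the CAF1-type nucleases, had 950, 1710 and 1628 reads, at 1.58 times siNC (1.46 to 1.71) and 1.44 times (1.33 to 1.56). Ago3, an Argonaute gene, had 1775, 1366 and 1465 reads and was lower in both, at 0.675 (0.629 to 0.725) and 0.693 (0.646 to 0.743). Others named by the same rule in siSRSF1 were Zfp36l2 at 1.33, Angel1 at 0.731 and Rc3h2 at 0.760. In siSRSF2 they were Angel2 at 1.40 and Btg3 at 1.38. With the GC trend removed, Zfp36l2 and Rc3h2 no longer passed in siSRSF1, at 1.25 and 0.846. Zfp36l2 was also higher in siSRSF2, at 1.38 (1.24 to 1.54), and stayed past the rule there with that trend removed, at 1.35.

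A list of 16 transcripts that are known decay targets, in part from human cells, did not move one way. In siSRSF1, 1 was higher and 1 lower, beside 12.0% and 9.68% of all genes, and the median log2 ratio was -0.10, beside 0.00. In siSRSF2, 7 were higher and 3 lower, beside 14.0% and 10.5%, and the median log2 ratio was 0.18, beside 0.02. The stress genes Trib3 and Atf3 were the highest in siSRSF2, at 2.47 (2.31 to 2.65) and 2.57 (2.09 to 3.19), with Atf3 also at 1.81 in siSRSF1 (1.45 to 2.28). Chac1, a stress-induced enzyme of glutathione breakdown, followed at 1.58 (1.5 to 1.67). The lower ones in siSRSF2 were Tbl2 at 0.483 (0.446 to 0.523), Eif4a2 at 0.571 (0.55 to 0.592) and Rpl3 at 0.710 (0.685 to 0.736). Upp1 lay apart between the libraries, with 144, 110 and 247 reads and ratios of 0.671 (0.518 to 0.865) in siSRSF1 and 1.44 (1.17 to 1.78) in siSRSF2. Several of these genes also respond to stress, and for Eif4a2 and Rpl3 the known target is 1 isoform among those a gene count adds up, so the list is no measure of decay activity.

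Ratios of the members were related to the GC content of their transcripts in both comparisons. With the gene length in the table, Spearman's rho across the members was -0.355 in siSRSF1 and -0.107 in siSRSF2, beside -0.191 and -0.02 over all genes. The median GC content of the members was 49.0%, beside 49.3% for all genes, and the 3′ UTR of the members had a median of 939 bases, beside 736. Dcp2 had the longest 3′ UTR of the members, 7240 bases, and Ncbp2 the shortest, 32 bases. Across the 47 members, Spearman's rho between GC content and ratio was 0.309 in siSRSF1 and 0.415 in siSRSF2, beside 0.334 and 0.17 over all genes, where the points share the same pair of libraries and are not replicates. Members below their own median GC content had a median ratio of 0.939 in siSRSF1 and 0.928 in siSRSF2, and those at or above it had 1.04 and 1.09. With 3′ UTR length, rho across the members was -0.348 in siSRSF1 and -0.186 in siSRSF2, beside -0.178 and -0.021 over all genes. Each member whose call against siNC ended with the GC trend removed has that value beside it above. Whether GC content has a part in the remaining differences was not tested.

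**Figure D5:**
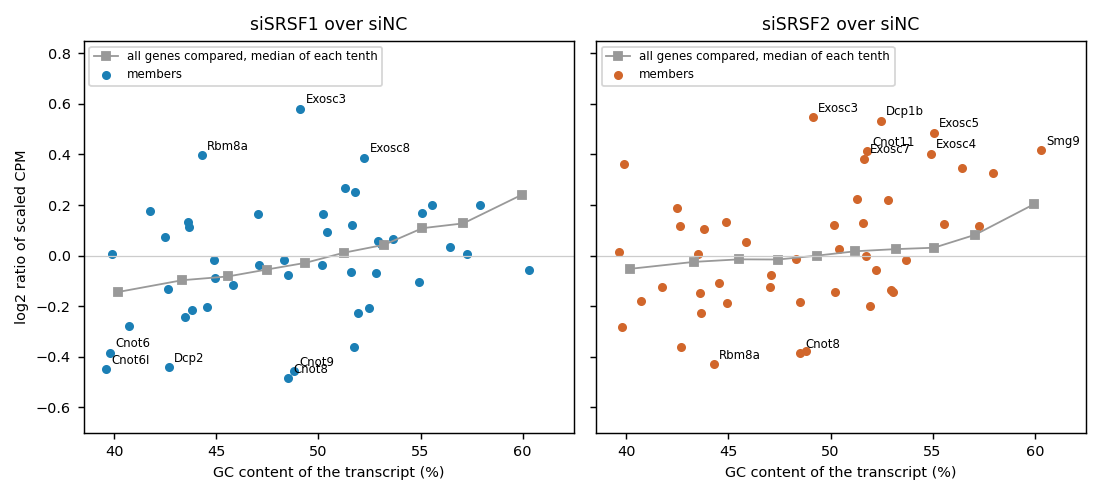
The log2 ratio of scaled CPM of the decay genes over siNC, 1 member not shown, against the GC content of its transcript (%), for siSRSF1 (left) and siSRSF2 (right); the grey line joins the medians of all genes in 10 equal bins of GC content. The grey line runs from -0.14 to 0.24 in siSRSF1 and from -0.05 to 0.20 in siSRSF2, and Cnot6l and Cnot6 lie at the GC-poor end, at 39.6% and 39.8%.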

How the data were processed

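The deposited table has 1 line per gene. Per the file headers it gives each library a read count, which the authors left unnormalised, and an FPKM made by the authors, which was checked to equal count over length and column total within 0.00045%. The submitters' processing notes name Bowtie2 2.4.2 and the build mm10 (GRCm38). For the counting tool, its annotation, strand use and multiply mapped reads, the sources used here give nothing. The table had 21935 lines, of which 67 shared a symbol and were summed, and 1 line was empty. The start and end of all 48 members were the same in GENCODE M21, from which transcripts, overlaps, UTRs and sequences were read with biopython 1.88.

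Counts were scaled with TMM factors of 0.991 (siNC), 0.99 (siSRSF1) and 1.02 (siSRSF2) in edgeR 4.0.16 under R 4.3.3; edgeR ran no test. Depths were 12688334, 14478045 and 14682576 reads, at which 3 reads equal 0.239, 0.209 and 0.2 scaled CPM. Ratios used a prior of 0.5 reads and exact Clopper-Pearson 95% intervals (scipy 1.17.1). Genes with at least 20 reads in either library of a pair were compared. GC and length trends over all genes were removed with lowess (fraction 0.3, 3 iterations, statsmodels 0.14.6), and the calculation was tested on simulated data. Groups follow the transfection label, with 1 library each, and all 3 pairs of libraries were compared. Both comparisons with siNC share that library.

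Members with a ratio past 1.3-fold, or with the highest or lowest ratio of their complex against siNC, are given with that ratio. Further members are given by their level. From each partner list, up to 3 highest and 3 lowest genes past the rule were named. Each had 100 or more reads in the higher library. Lsm7 and Upp1 were given in full, and Lsm1, Nudt3 and the siSRSF2 ratio of Zfp36l2 were given in addition. Members, lists, thresholds and alternatives were chosen with earlier results of these data known. The alternatives were library totals, median-of-ratios factors, leaving out Ins1 and Ins2, a minimum of 100 reads or none, a prior of 2 reads, the GC and length trends, and ratios of the deposited FPKM. 1 member was kept in the counts and group sums and is not reported here by itself.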

Additional observations from a re-analysis of the deposited data

How the results depend on the processing

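No paired analysis was possible because each group holds 1 library, and for the same reason no replicate could be left out. Of 141 member ratios over the 3 comparisons, 129 kept their side of the 1.3-fold rule with the GC trend removed, 137 with the length trend removed, 135 with library totals or with FPKM, and 139 with median-of-ratios factors. All members compared kept it with a prior of 2 reads, with no minimum or a minimum of 100 reads, and without Ins1 and Ins2. With the GC trend removed, members lower in siSRSF1 numbered 3 (5 as reported) and in siSRSF2 1 (2 as reported), and the median log2 ratio of siSRSF1 to siSRSF2 was -0.0536. With library totals, and likewise with FPKM, members lower in siSRSF2 numbered 1, those lower in siSRSF1 than in siSRSF2 numbered 7 (4 as reported), and the median log2 ratios were 0.0576 for siSRSF2 to siNC and -0.14 for siSRSF1 to siSRSF2. With library totals, the summed CCR4-NOT reads were 1.00 times siNC in siSRSF2, crossing 1, and 0.864 times in siSRSF1 against siSRSF2. Sums of complexes were not run with FPKM. The shift follows from the scaling: totals moved the median of all genes in siSRSF2 to siNC from 0.02 to 0.06 on the log2 scale. Depth limits Dcp1b, Magohb and Exosc4 most, since their intervals are widest, and no depth replaces the missing replicates.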
